A study of Mus musculus with 12 samples.

Results

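The oligosaccharyltransferase is the enzyme complex of the endoplasmic reticulum that attaches N-linked sugar chains to proteins. The transcripts of 8 of its subunits, Dad1, Ost4, Ostc, Rpn1, Rpn2, Ddost, Stt3a and Stt3b, are described here in resting CD8 T cells that carried a scurfy or a wild-type allele of Foxp3, the transcription factor of regulatory T cells. The subunits were chosen by gene symbol from a table of 11581 genes, and all 8 have a row in it. They were proposed for description with the difference between scurfy and wild type in the same libraries already known. Their values in that contrast are therefore a description, and no test is given for them. Dad1 and Ost4, a pair of small subunits, had about 2.08 and 2.30 times as many normalized counts in scurfy as in wild-type cells. The ratio for the other 6 subunits lay between 0.901 and 1.25, and these include both catalytic subunits.

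The cells came from mice whose bone marrow had been replaced by a mixture of marrow from different donors, studied 2 months after reconstitution. One marrow in each mixture was OT-1, which gives T cells with a single transgenic receptor for the ovalbumin peptide SIINFEKL. It was CD45.1+/2+ and carried Foxp3Scurfy in one group and Foxp3wt in the other. The remaining marrow was CD45.2+ in both groups, and the recipients were CD45.2+ C57BL/6 J mice. CD8 T cells were purified, and polyadenylated RNA was sequenced without peptide stimulation in 3 scurfy and 3 wild-type libraries. A further 6 libraries of the series were given the peptide for 6 h and were not analysed here. Separate mice are not named for the libraries of 1 group, and p-values here therefore measure only how far these samples spread, which may be technical. Each gene was measured as a normalized count, meaning its reads divided by the size factor of the library. In bulk libraries, fewer cells of a type and less RNA per cell cannot be told apart.

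As background, the oligosaccharyltransferase transfers a preassembled oligosaccharide from a lipid carrier to asparagine residues of proteins that enter the endoplasmic reticulum. The catalytic subunit is either STT3A, whose complex sits at the protein-conducting channel and acts while a protein is being made, or STT3B, which can act on sites that were missed. Ribophorin I (Rpn1), ribophorin II (Rpn2) and OST48 (Ddost) form the large part around the catalytic subunit, while DAD1, OST4 and TMEM258 are small membrane proteins found in both forms. DC2 (Ostc) and KCP2 (Krtcap2) belong to the STT3A form and connect it to the channel, and MAGT1 and TUSC3 are thioredoxin-like subunits of the STT3B form. The T cell receptor and the CD8 coreceptor are among the glycoproteins that such cells make through this pathway.

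Dad1 and Ost4 are encoded by short messages. The main coding transcript of Dad1, on chromosome 14, has 878 bases and 113 codons before the stop. That of Ost4, on chromosome 5, has 576 bases and 37 codons before the stop. In contrast, the transcripts of the catalytic subunits Stt3a and Stt3b, both on chromosome 9, have 5867 and 4221 bases with 705 and 823 codons. The whole reading frame of Ost4 is printed here because it shows how little sequence encodes this subunit, with the start and stop codons in capitals.
Ost4: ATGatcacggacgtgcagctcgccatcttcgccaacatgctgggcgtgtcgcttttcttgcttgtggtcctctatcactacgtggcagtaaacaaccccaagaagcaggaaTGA

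The promoters of Dad1 and Ost4 are shown beside that of Stt3a because the counts of the small subunits differed between the genotypes while those of Stt3a overlapped. Each is the 250 bases before the RefSeq start on GRCm38.p6, read along the gene, with every CCAAT and GGGCGG match on either strand in capitals. The windows are chr14:54253930-54254179, chr5:30907789-30908038 and chr9:36767623-36767872, all on the minus strand.
Dad1: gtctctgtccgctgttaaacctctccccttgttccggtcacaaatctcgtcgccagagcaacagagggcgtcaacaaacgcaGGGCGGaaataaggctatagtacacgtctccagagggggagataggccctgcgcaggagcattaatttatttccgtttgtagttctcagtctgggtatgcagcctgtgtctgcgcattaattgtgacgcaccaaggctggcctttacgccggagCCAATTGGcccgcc
Ost4: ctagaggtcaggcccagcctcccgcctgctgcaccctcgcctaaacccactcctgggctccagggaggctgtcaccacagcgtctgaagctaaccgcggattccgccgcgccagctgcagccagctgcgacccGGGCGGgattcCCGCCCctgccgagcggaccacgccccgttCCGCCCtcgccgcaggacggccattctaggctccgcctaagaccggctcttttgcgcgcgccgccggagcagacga
Stt3a: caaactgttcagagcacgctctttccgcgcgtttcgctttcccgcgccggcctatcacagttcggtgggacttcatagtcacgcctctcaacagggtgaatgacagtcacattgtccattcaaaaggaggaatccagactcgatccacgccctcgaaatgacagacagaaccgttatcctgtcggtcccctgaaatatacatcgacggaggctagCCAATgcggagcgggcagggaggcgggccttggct

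The Dad1 window held 2 CCAAT matches, on opposite strands and overlapping, and 1 GGGCGG match, the Ost4 window 0 and 3, and the Stt3a window 1 and 0. In GENCODE M21 the gene starts before the RefSeq start for Dad1 (-175 bases) and Stt3a (-57), and at the same base for Ost4 (0). All marked matches of Dad1 and Stt3a therefore lie inside the gene in that annotation. CCAAT and GGGCGG were found in 33.8% and 32.7% of all 32851 RefSeq windows of the same length, so neither is rare. RefSeq windows were matched for 7 of the 8 subunits, all but Ostc. None of the 7 held TATAAA (12.4% of all windows), CACGTG (6.02%), TGACGTCA (1.55%) or the endoplasmic reticulum stress element, CCAAT followed after 9 bases by CCACG (0.113%). CCGGAAG, found in 6.91% of all windows, was present once, in that of Ddost. Matches are letters in a window and not evidence of binding. No motif of this search was shared by Dad1 and Ost4 apart from GGGCGG.

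Dad1, first described as a defender against apoptotic cell death, was the most abundant of the 8 in scurfy cells. Its normalized counts were 4759, 4572 and 5025 in scurfy replicates 1 to 3 and 2258, 2654 and 1973 in wild-type replicates 1 to 3. Every scurfy library lay far above every wild-type library. The means were 4785 ± 228 (SD, n = 3) and 2295 ± 342 (SD, n = 3), and the log2 fold change was 1.07 with a standard error (SE) of 0.12. Each log2 fold change is the scurfy mean less the wild-type mean of log2(value + 1).

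Ost4, the smallest subunit, is a single membrane segment that holds the catalytic subunit in the complex. Its counts were 2454, 2703 and 3030 in the scurfy libraries and 1332, 1308 and 927 in the wild-type libraries. The groups were again well apart, with wild-type replicate 3 the lowest library, as it was for Dad1. The means were 2729 ± 288 (SD, n = 3) and 1189 ± 227 (SD, n = 3), and the log2 fold change was 1.21 (SE 0.14).

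Ostc, the third small subunit, did not follow them. Its counts were 1578, 1836 and 1858 in scurfy and 1890, 1840 and 1669 in wild-type libraries, and the groups overlapped. The means were 1757 ± 156 (SD, n = 3) and 1800 ± 116 (SD, n = 3), with a log2 fold change of -0.04 (SE 0.11).

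The catalytic subunits showed no separation of the genotypes. Stt3a gave 252, 256 and 305 normalized counts in scurfy and 230, 278 and 222 in wild-type libraries, a log2 fold change of 0.16 (SE 0.18). Stt3b gave 679, 709 and 660 in scurfy and 655, 849 and 769 in wild-type libraries, a log2 fold change of -0.14 (SE 0.13). For both genes the groups overlapped, and the means differed by less than the larger SD of the groups, 30.4 for Stt3a and 97.2 for Stt3b.

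Among the large partners, only Ddost had its groups apart. Rpn1, which contacts the protein substrates, gave 1086, 1002 and 943 in scurfy and 1142, 1111 and 965 in wild-type libraries, a log2 fold change of -0.08 (SE 0.12). Rpn2 gave 1372, 1427 and 1670 in scurfy and 1378, 1388 and 1544 in wild-type libraries, a log2 fold change of 0.05 (SE 0.11, or -0.09 with library size scaling). Both overlapped. Ddost, which encodes OST48, gave 688, 730 and 688 in scurfy and 457, 624 and 604 in wild-type libraries. Every scurfy value of Ddost exceeded every wild-type value, with a log2 fold change of 0.33 (SE 0.14), and the gap to the nearest wild-type library was small.

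**Figure D1:**
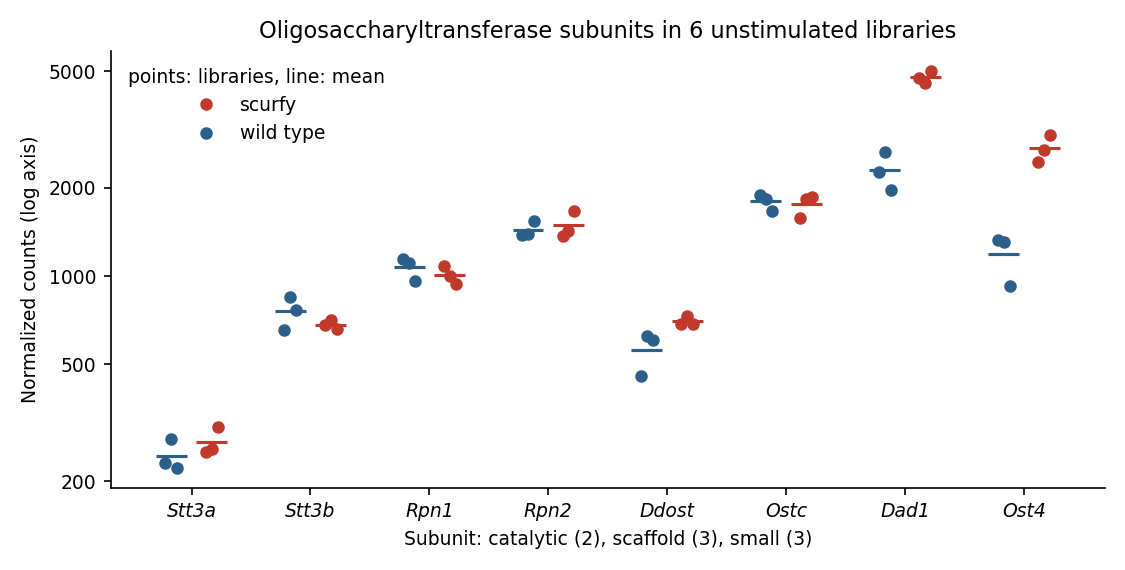
Normalized counts (vertical log axis) of the 8 subunits in the 3 scurfy (red) and 3 wild-type (blue) libraries, with a line at each group mean. The points of Dad1 and Ost4 form separate groups, at means of 4785 against 2295 and 2729 against 1189, while those of Stt3a, Stt3b, Rpn1, Rpn2 and Ostc overlap.

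Counted over the complex, 3 of the 8 subunits (Dad1, Ost4 and Ddost) had all scurfy libraries above all wild-type libraries and 0 had all below. Over all 11581 genes these shares were 13.4% above and 13.7% below, and since the subunits were proposed from this contrast nothing is read from the comparison. The median log2 fold change of the 8 was 0.10, beside 0.01 for all genes. The lowest and highest of the other 6 were -0.14 for Stt3b and 0.33 for Ddost.

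Levels of the subunits were set beside each other per length, as normalized counts per 1000 bases of the main coding transcript, and also undivided. In wild-type cells, the order was Dad1 (2614 ± 390, SD, n = 3), Ost4 (2064 ± 394), Ostc (1687 ± 109), Rpn2 (521 ± 33.8), Rpn1 (295 ± 26.0), Ddost (265 ± 43.0), Stt3b (179 ± 23.0) and Stt3a (41.4 ± 5.18). On this scale the small subunits stood at the top and the catalytic subunits at the bottom. Counts not divided by length gave another wild-type order, with Rpn2 (1437 ± 93.1, SD, n = 3) above Ost4 (1189 ± 227) and Stt3b (758 ± 97.2) above Ddost (562 ± 91.1). The neighbouring pairs Dad1 and Ost4, Ost4 and Ostc, and Rpn1 and Ddost differed by no more than the SDs of both groups added together. In scurfy cells, Dad1 reached 5450 ± 259 (SD, n = 3) and Ost4 4738 ± 501, while Ostc stayed at 1647 ± 146. The scurfy order differed from the wild-type order in 1 place, with Ddost at 331 ± 11.4 above Rpn1 at 278 ± 19.8. Priming from the poly(A) tail reads mainly the 3′ end of a message, so dividing by length can favour short transcripts.

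Setting subunits against each other inside a library removes the library's scaling. Here the log2 level of one gene was subtracted from that of another in the same library. The level of such a difference can also reflect transcript length, so mainly its shift between genotypes is described. That shift is not free of length either, because short and long transcripts moved apart between the genotypes, as given below. The mean of Dad1, Ost4 and Ostc minus the mean of Stt3a and Stt3b was 2.67, 2.73 and 2.76 in the scurfy libraries and 2.20, 1.93 and 1.81 in the wild-type libraries. The scurfy libraries were all higher, by 0.74 on average, or by 0.46 with the coding transcript length trend removed.

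Dad1 and Ost4 carried this shift, and Ostc did not. Dad1 minus Ostc was 1.45 ± 0.14 (SD, n = 3) in scurfy and 0.34 ± 0.16 in wild-type libraries. Ost4 minus Ostc was 0.63 ± 0.07 (SD, n = 3) in scurfy and -0.61 ± 0.20 in wild-type libraries, so Ost4 counts exceeded those of Ostc in scurfy and lay below them in wild type. Dad1 minus Ost4 had overlapping groups, with means of 0.81 in scurfy and 0.96 in wild type. Ostc minus Rpn1 also overlapped, at 0.80 ± 0.23 (SD, n = 3) in scurfy and 0.75 ± 0.04 in wild-type libraries.

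The pair of catalytic subunits, read against each other, was slightly apart. Stt3a minus Stt3b was -1.43, -1.46 and -1.11 in scurfy and -1.51, -1.61 and -1.79 in wild-type libraries. The groups did not overlap, but the gap between the closest libraries was small beside the range within scurfy. Rpn1 minus Rpn2 overlapped, with means of -0.56 and -0.42.

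**Figure D2:**
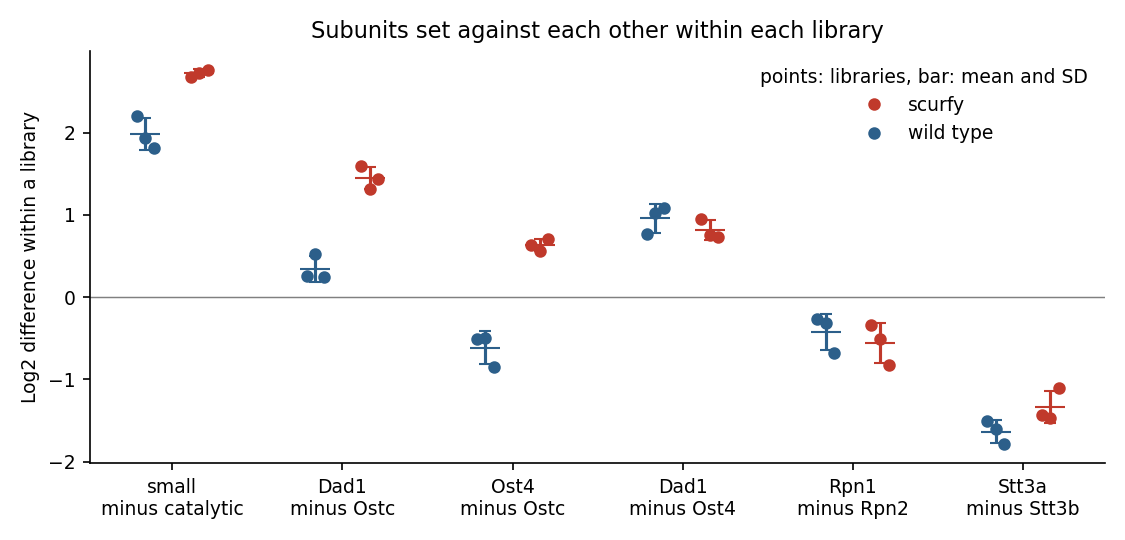
Log2 difference between subunits within each library (vertical axis) for 6 contrasts, scurfy in red and wild type in blue, with the mean and SD of 3 libraries. Dad1 minus Ostc and Ost4 minus Ostc are shifted upward in scurfy by 1.11 and 1.25, whereas Dad1 minus Ost4 and Rpn1 minus Rpn2 overlap.

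The library-to-library variation of the subunits was also compared. Over the 6 libraries, Pearson's r of the log2 values of Dad1 and Ost4 was 0.98, and it was 0.77 after the mean of each genotype had been subtracted. Within genotype, r was higher for Stt3b and Ddost (0.95), Stt3a and Dad1 (0.86) and Ost4 and Ostc (0.84), so this likeness was not particular to Dad1 and Ost4. Rpn1 and Rpn2 ran in opposite directions (r = -0.89 over 6 libraries, -0.89 within genotype). These correlations are descriptions over few points that share a genotype and a library.

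The genes whose pattern over the 6 libraries was most like that of Ost4, among 9187 genes whose mean reached 50 normalized counts, were Dapl1 (r = 0.998), Nedd8, a ubiquitin-like modifier (0.997), and Cox7c, a subunit of cytochrome c oxidase (0.996). For Dapl1 the means were 7369 ± 675 in scurfy and 3276 ± 588 in wild type (SD, n = 3), a log2 fold change of 1.18. The 3 genes most like Dad1 were the processed pseudogenes Gm14513 (r = 0.998), Gm46209 (0.998) and Gm2614 (0.994), whose log2 fold changes lay between 0.69 and 0.90. Reads of processed pseudogenes can be shared with their parent genes, so these values are uncertain. Since Dad1 and Ost4 separate the genotypes, any gene that does so strongly will rank high by this measure.

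Of the 4 oligosaccharyltransferase subunits outside the 8, 1 passed the test (limma), beside 4.47% of all genes. Among genes with a main coding transcript under 1000 bases, as Tmem258 has, 12.3% rose. Tmem258, the third small subunit shared by both forms, rose in scurfy cells. Its counts were 931, 923 and 1592 in the scurfy libraries and 460, 541 and 270 in the wild-type libraries, so the groups were apart, with scurfy replicate 3 high and wild-type replicate 3 low. The means were 1149 ± 384 and 424 ± 139 (SD, n = 3), a log2 fold change of 1.45 (SE 0.27, limma adjusted p = 0.0198). Over the 6 fits that each leave out 1 library, the adjusted p ran from 0.0130 to 0.0780. Of these, the fit without wild-type replicate 1 lost the call.

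Krtcap2, which like Ostc belongs to the STT3A form, did not pass. Its counts were 4306, 4506 and 3642 in scurfy and 4796, 4044 and 3565 in wild-type libraries, with overlapping groups and a log2 fold change of 0.01 (SE 0.12, limma adjusted p = 0.975), or -0.13 with library size scaling. Within a library, Tmem258 minus Krtcap2 on the log2 scale was -1.90 ± 0.61 in scurfy and -3.33 ± 0.41 in wild type (SD, n = 3), with the scurfy libraries all higher. An exact two-sided permutation test gave p = 0.1, the smallest that 3 libraries against 3 allow, and this pair was chosen after its values were seen.

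The thioredoxin-like pair of the STT3B form pointed in opposite directions. Tusc3 gave 148, 156 and 136 in scurfy and 214, 217 and 255 in wild-type libraries, with every scurfy library lower and a log2 fold change of -0.64 (SE 0.19). It did not pass with limma (adjusted p = 0.0720), but did with DESeq2 on the recovered reads (adjusted p = 0.0338) and with library size scaling (0.0305). Magt1 gave 465, 460 and 548 in scurfy and 379, 448 and 410 in wild-type libraries, a log2 fold change of 0.25 (SE 0.14) that did not pass (limma adjusted p = 0.338). The log2 difference Tusc3 minus Magt1 was -1.73 ± 0.24 in scurfy and -0.85 ± 0.18 in wild type (SD, n = 3). Its groups did not overlap, the exact permutation p again being 0.1, the smallest possible, for a pair also chosen after its values were seen.

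**Figure D3:**
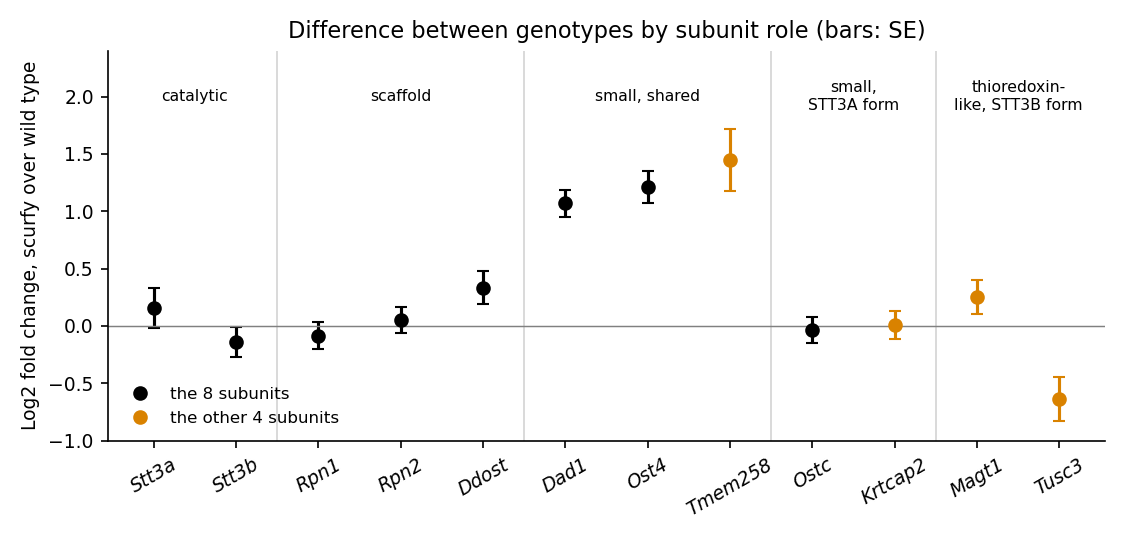
Log2 fold change, scurfy over wild type (vertical axis), of all 12 subunits arranged by role, with bars for the SE; black points are the 8 chosen subunits and orange points the other 4. The shared small subunits Dad1, Ost4 and Tmem258 lie between 1.07 and 1.45, and the remaining subunits between -0.64 and 0.33.

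Transcript length moved with the difference between genotypes across the 9924 genes with a main coding transcript. By that length the 3 higher small subunits are among the short transcripts. Of 797 genes with a main coding transcript under 1000 bases, 98 rose in scurfy (12.3%, limma) and 2 fell, with a median log2 fold change of 0.23. Of 6393 genes between 1000 and 4000 bases 78 rose and 165 fell (median -0.01), and of 2734 longer genes 8 rose and 92 fell (median -0.08). Dad1 (878 bases), Ost4 (576) and Tmem258 (606) are in the short class. Ostc (1067) and Krtcap2 (1172) lie just above its edge. The planned classes were on another measure, the exonic length over all transcripts of a gene. By it, 7.74% of 1098 genes under 1000 bases rose and 0.638% fell (limma). Dad1, Ost4 and Tmem258 then lie among the 4592 genes between 1000 and 4000 bases, of which 2.83% rose and 1.79% fell.

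Each gene's deviation from its own mean over the libraries was also taken, and its median over the genes longer than 4000 bases was subtracted from that over the genes under 1000. The result was 0.17, 0.22 and 0.10 on the log2 scale in the scurfy libraries. It was -0.07, -0.21 and -0.19 in the wild-type libraries, so the length pattern followed the genotype in every library. With a smooth trend on exonic length over all transcripts removed in each library, Dad1 was at 1.09, Ost4 at 1.06 and Tmem258 at 1.35. Tmem258 still passed (limma adjusted p = 0.0468), and the small minus catalytic shift was 0.63. That exonic length is 3916 bases for Dad1, 1272 for Ost4 and 1611 for Tmem258, so none of them was under 1000 bases in this fit. With a smooth trend on the length of the main coding transcript removed in each library, an alternative chosen after the data were seen, Dad1 was at 0.90, Ost4 at 0.91 and Tmem258 at 1.16, whose adjusted p of 0.0514 no longer passed. The small minus catalytic shift was then 0.46 in place of 0.74. The part of length in these differences was not tested further.

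**Figure D4:**
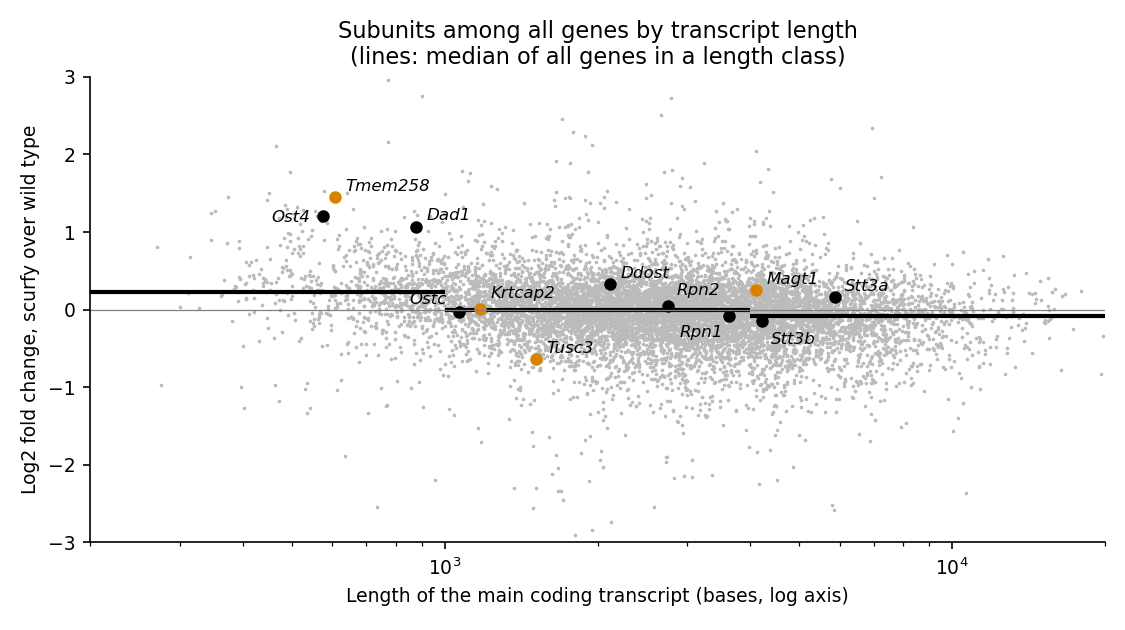
Log2 fold change, scurfy over wild type (vertical axis, limited to values from -3 to 3), against the length of the main coding transcript in bases (horizontal log axis) for all genes with such a transcript (grey). The 8 subunits are black and the other 4 orange. Black lines mark the class medians of 0.23, -0.01 and -0.08; Dad1, Ost4 and Tmem258 lie above the line of the short class, and Ostc and Krtcap2 lie near 0.

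Neighbouring and overlapping genes were read next to the small subunits. Dad1 lies close to the T cell receptor alpha locus, and its nearest measured neighbours are Trac, the alpha chain's constant region, and Abhd4. Abhd4 starts 84 bases from the Dad1 gene on the opposite strand, and the Dad1 window printed above reaches into the stretch between them. Trac was at 5678 ± 284 in scurfy and 5090 ± 209 in wild type (SD, n = 3), a log2 fold change of 0.16 (limma adjusted p = 0.376), and Abhd4 was at -0.05 (0.930). Neither passed. Exons of Ost4 overlap those of Agbl5 on the opposite strand by 677 bases, and since whether counting used strand is not stated, reads of that stretch cannot be assigned with certainty. Agbl5 itself was at 156 ± 23.7 and 144 ± 1.97 (SD, n = 3), a log2 fold change of 0.10 (limma adjusted p = 0.822). The processed pseudogene Gm19774 matches 114 bases of the Ost4 transcript at 98.2% identity and could share its reads, and no such copy was found for Dad1. On its other side, the nearest measured gene to Ost4 was Emilin1, at 0.19 (limma adjusted p = 0.768). The nearest to Ostc were Gm9396, at 0.51 (limma adjusted p = 0.146), and Rpl34, which rose by 0.54 on the log2 scale (0.0316).

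The rest of the N-glycosylation pathway was read from lists of genes that work before, beside and after the transferase. With the 4 subunits above, 106 of 110 listed genes had a row. Of these, 3 rose, 5 fell and 98 did not pass (limma), with a median log2 fold change of -0.00. Of all genes 4.47% passed, 2.12% upward and 2.35% downward, beside 2.83% and 4.72% of the pathway genes. The counts depend on single libraries: 2 of these genes passed without wild-type replicate 2 and 2 without wild-type replicate 3. With the coding transcript length trend removed, 0 passed upward and 4 downward (limma).

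Assembly of the lipid-linked oligosaccharide, the donor that the transferase uses, held no gene that passed among 29 measured (0 with limma, 0 with edgeR and 1 with DESeq2). Of these 29 genes, 7 had an unadjusted limma p under 0.05, as did 21.2% of all genes tested. The smallest p was that of Pmm2, the phosphomannomutase that supplies mannose donors, with 442 ± 55.8 in scurfy and 307 ± 25.1 in wild type (SD, n = 3), a log2 fold change of 0.52 and a limma adjusted p of 0.0723. The median of the list was 0.04. The GPI anchor transamidase, another enzyme of the endoplasmic reticulum that modifies proteins, had 0 of 5 genes past the threshold with limma, edgeR or DESeq2 and 0 with an unadjusted p under 0.05. Its smallest p was that of Pigt, at a log2 fold change of 0.18 (SE 0.14, limma adjusted p = 0.491).

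Of 27 measured genes of endoplasmic reticulum targeting, the translocon and the signal peptidase, 2 rose and 1 fell. Of all genes 2.12% rose and 2.35% fell. Tram1, a membrane protein beside the channel, had 414, 439 and 339 counts in scurfy and 798, 621 and 676 in wild-type libraries. It fell by 0.81 on the log2 scale (SE 0.15, limma adjusted p = 0.0116) and passed in all 6 fits that leave out 1 library, at up to 0.0421. Ssr4 and Ssr2, the delta and beta chains of the translocon-associated protein complex, rose by 0.56 and 0.48 on the log2 scale (limma adjusted p = 0.0193 and 0.0269).

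The calls of Ssr4 and Ssr2 depended on single libraries and on the treatment of length. Ssr4 was lost without scurfy replicate 2, wild-type replicate 2 or wild-type replicate 3, at up to 0.0791. Ssr2 was lost in 5 of the 6 such fits, all but the one without scurfy replicate 3, at up to 0.100. With the coding transcript length trend removed, neither passed (limma adjusted p = 0.0860 for Ssr4 and 0.0695 for Ssr2). Ssr2 was also lost with library size scaling (0.0816) and with the exonic length trend removed (0.0531). The other chains of that complex, Ssr1 and Ssr3, were at -0.46 and -0.47, with every scurfy library lower, as for 13.7% of all genes. Neither passed in the main fit (limma adjusted p = 0.0512 and 0.0527). Both passed with edgeR (adjusted p = 0.0482 and 0.0478) and with DESeq2 (0.0200 and 0.0198) on the recovered reads. With the exonic length trend removed, neither passed (limma adjusted p = 0.137 and 0.0744). Srp54a, a subunit of the signal recognition particle, had the lowest value of the list, -2.30 (limma adjusted p = 0.160), from 0, 6.10 and 4.73 normalized counts in scurfy and 19.9, 15.0 and 13.4 in wild-type libraries. It was picked out for its value, and near-identical Srp54 copies can share its reads.

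After transfer, sugars are trimmed and read by lectin chaperones. Of 22 measured genes of that step, 1 fell, beside 2.35% of all genes. Edem1, which directs misfolded glycoproteins to degradation, had 1634 ± 21.4 counts in scurfy and 2199 ± 152 in wild type (SD, n = 3), a log2 fold change of -0.43 (SE 0.10, limma adjusted p = 0.0312). Every one of the 6 fits without a library lost this call, with adjusted p from 0.0514 without scurfy replicate 3 to 0.107 without wild-type replicate 3.

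Of 19 measured genes of Golgi N-glycan processing, 3 fell and 0 rose, with a list median of -0.15. Over all genes 2.35% fell and 2.12% rose, and the list was chosen with earlier results of these data known. Mgat2, which starts the second branch of complex N-glycans, fell by 0.99 on the log2 scale, with 157 ± 38.0 counts in scurfy against 306 ± 34.0 in wild-type libraries (SD, n = 3, limma adjusted p = 0.0187). St6gal1, the sialyltransferase that caps N-glycans, fell by 0.53 on the log2 scale (limma adjusted p = 0.0239). Slc35a3, a Golgi transporter of UDP-N-acetylglucosamine, fell by 0.73 on the log2 scale (limma adjusted p = 0.0497). Every scurfy library was below every wild-type library for these 3 genes, as for 13.7% of all genes.

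These Golgi calls also depended on single libraries. Mgat2 was lost without scurfy replicate 3, wild-type replicate 2 or wild-type replicate 3, at up to 0.0803. St6gal1 was lost without scurfy replicate 2, wild-type replicate 2 or wild-type replicate 3, at up to 0.0957. Slc35a3 was lost in all 6 such fits, at up to 0.183.

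**Figure D5:**
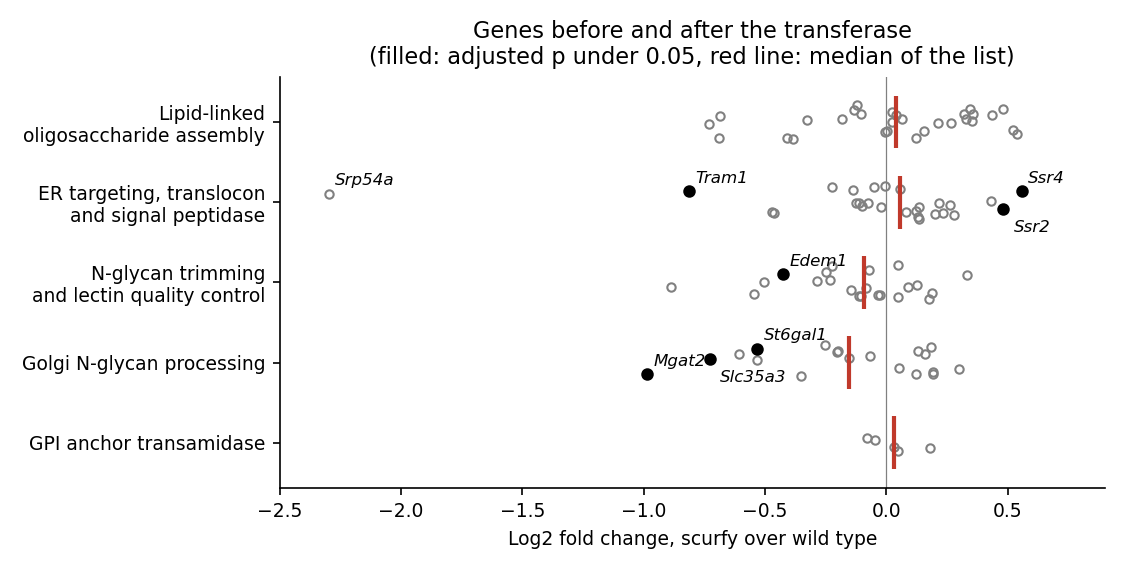
Log2 fold change, scurfy over wild type (horizontal axis), of the measured genes in 5 lists of the secretory pathway, 1 point per gene. Filled, named points passed limma at an adjusted p of 0.05, the red line is the median of a list, and the open point named Srp54a did not pass. The lists are centred between -0.15 and 0.06.

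By length, 10 of the 106 pathway genes have a main coding transcript under 1000 bases. Of these, Ssr4 and Tmem258 rose and the other 8 did not pass, with values from -0.10 for Sec61b to 0.43 for Spcs1. The median of the 10 was 0.30 and 20% of them rose, beside 0.23 and 12.3% for all 797 genes of that length. By exonic length, the planned measure, 1 pathway gene was under 1000 bases and it did not pass.

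Over the 11581 genes, the libraries held between 8852518 and 12841455 reads, apart from wild-type replicate 2 with 23149523. Each of the 8 subunits had between 173 and 5492 reads in every library. Cd8a and Cd8b1 were high in every library, from 6873 to 8310 and from 21344 to 21911 normalized counts. The summed CD8 T cell markers, 12 of 12 with a row, were 146819 to 153868 in scurfy and 138928 to 143648 in wild type. With limma 1 of these 12 markers passed, Cd3d, which rose by 0.76 on the log2 scale (limma adjusted p = 0.00551). Of all genes 4.47% passed, 2.12% upward. With edgeR 1 of the 12 passed and with DESeq2 2. An unadjusted limma p under 0.05 was found for 4 of the 12 and for 21.2% of all genes. Foxp3 has no row, so the genotype was not checked in these values.

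Markers of other cells were read in the same libraries. Of 13 B cell markers 8 have a row, and Ms4a1 and Cd79a are among those with none. Ighm, the heavy chain of immunoglobulin M, had 9504 to 11206 normalized counts over all libraries and made up most of their sum. All 8 measured markers had a log2 fold change below 0, with a median of -0.71. The sum of the 8 was 9915 to 11806 in scurfy and 11035 to 11932 in wild type. H2-Aa fell by 3.97 on the log2 scale (limma adjusted p = 0.0164, 0.0661 without wild-type replicate 2 and 0.0706 without wild-type replicate 3), from 57.2 to 84.1 counts in wild type to 0 to 15.7 in scurfy libraries. H2-Ab1, H2-Eb1 and Cd74 did not pass, at -3.48, -2.34 and -0.99. For each, every scurfy library was below every wild-type library, as for 13.7% of all genes. Plasma cells had 5 of 10 markers with a row, of which 0 passed with limma, 1 with edgeR and 0 with DESeq2, and 2 had an unadjusted limma p under 0.05. Their sum was 1031 to 1181 in scurfy and 1086 to 1230 in wild type.

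Of 10 myeloid markers 2 have a row, and Lyz2 and Csf1r have none. Their sum was 1463 to 1579 in scurfy and 850 to 1172 in wild type, and Cst3 rose by 0.59 on the log2 scale (limma adjusted p = 0.0202), a call lost without scurfy replicate 2, scurfy replicate 3 or wild-type replicate 2, at up to 0.0815. Of 6 erythroid markers only Car2 has a row, which fell by 1.12 on the log2 scale (limma adjusted p = 0.0139, 0.0645 without wild-type replicate 3). Of 5 natural killer cell markers 1 has a row and did not pass, and of 3 CD4 T cell markers none has a row. The part of other cells in the subunit values was not tested.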

How the data were processed

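Per the labels, polyadenylated RNA was reverse transcribed from oligo-dT primers, amplified by in vitro transcription and sequenced on a NextSeq. The submitters' processing notes name Trim Galore 0.4.4, STAR 2.6, featureCounts and build NCBIM37, and also edgeR and DESeq2 with no role. The deposited values are a signal, reads divided by a size factor; all came out as whole reads within 0.01 read, so the depth is known. The deposited table holds, per the file headers, also the authors' log2 fold change, a test score and p-values, none used here. The stimulated libraries were not analysed because the 2 deposited tables hold the same values.

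Since the values were normalized, limma 3.58.1 (R 4.3.3; variance trend, robust; 4 residual degrees of freedom) was used on log2(value + 1) over 11581 genes, with Benjamini-Hochberg adjustment at 0.05. The design named edgeR for counts, and edgeR 4.0.16 and DESeq2 1.42.0 on recovered reads are alternatives. The script was tested on simulated data. The subunits and gene lists were chosen with earlier results of these data known. Named were the subunits, in each pathway list up to 4 passing genes of smallest p or else the gene of smallest p, in marker lists the passing and most abundant genes, and the 3 genes most correlated with Dad1 and with Ost4. Lengths are from GENCODE M21, which held 11571 of the gene IDs. A rule for low genes was applied before deposit, so nothing is known of the level of genes with no row. Over the genes kept, depth was 8852518 to 23149523 reads, and 3 reads equal 1.45 to 3.99 normalized counts. No pair of replicates agreed within sampling noise (6.77 to 32.4 times its variance).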

Additional observations from a re-analysis of the deposited data

How the results depend on the processing

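The count of 518 genes called (246 higher, 272 lower) was 930 with library size scaling (169 higher, 761 lower), 305 with the exonic length trend removed and 891 with DESeq2, and from 113 without wild-type replicate 3 to 403 when 1 library was left out. Library size scaling moved the median over all genes from 0.01 to -0.13 on the log2 scale. The 8 pathway genes called became 14 with library size scaling, 15 with DESeq2, 5 with the exonic length trend removed, 4 with the coding transcript length trend removed, and 2 to 6 with 1 library left out. The small minus catalytic shift of 0.74 was 0.46 with the coding transcript length trend removed and 0.66 to 0.85 with 1 library left out. Krtcap2, at 0.01, was at -0.13 with library size scaling and at -0.0941 and -0.0781 with the exonic and coding transcript length trends removed. Leaving out 1 library gave -0.0912 to 0.123, with 4 of 6 values below 0. For the 8 subunits, 123 of 128 alternative fold changes moved by less than the replicate spread. The exceptions were Rpn1 at -0.22, Rpn2 at -0.09 and Ostc at -0.17 with library size scaling, and Dad1 at 0.90 and Ost4 at 0.91 with the coding transcript length trend removed. The replicate block and the filter on a mean of at least 50 counts could not move these fold changes. Pseudocounts of 0.5 and 5 hardly could at such counts, so the tally is not a measure of stability. Replicate numbers did not pair the libraries (r of same-numbered libraries -0.03, -0.07 and -0.15). With a replicate block, 372 genes and 5 pathway genes were called, and the adjusted p of Tmem258 was 0.123. For the other named genes, 181 of 239 alternatives kept direction and side of the threshold. Only unstimulated libraries with 3 per genotype were used, and the cause of these changes was not tested.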
